A study of Elopichthys bambusa with 12 samples.

Results

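In the liver of the yellowcheek carp, 98 of 42353 assembled transcripts were strongly higher after both an 8-day and a 28-day fast than in fed fish of the same day. They were chosen by their values in CPM (counts scaled to a fixed library size, that is, a transcript's estimated counts relative to the library's total). A transcript was taken when its mean was at least 5 CPM in both fasted groups and at least 4 times the fed mean on each day, and when all 6 fasted libraries lay above all 6 fed libraries. Every difference between fasted and fed livers below is therefore a description of what the rule selected, with no test.

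Yellowcheek carp (Elopichthys bambusa) is a predatory freshwater fish of the carp family. Livers were taken from fish given no food for 8 days (fasted 8 days) or 28 days (fasted 28 days), and from fish fed a commercial diet over the same periods (fed 8 days and fed 28 days). Each group had 3 libraries of stranded mRNA sequencing, and the labels give no strain, sex or age and do not say whether a library came from 1 fish or a pool. P-values therefore measure the spread between these libraries.

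During a fast the vertebrate liver turns from storing nutrients to releasing them. Glycogen is broken down, glucose is made from amino acids and glycerol, and fatty acids released from fat stores are burned or turned into ketone bodies. In mammals, transcription factors such as PPAR-alpha, FOXO1, CREB and the glucocorticoid receptor switch on the genes for these steps. The identifiers used here come from a de novo assembly, and the files do not pair them with gene names, so which of these genes are among the 98 is not known and no role can be given to a member. Liver markers, and markers of blood or pancreas, could not be checked for the same reason. In whole tissue, more RNA per cell cannot be told apart from more cells of one type.

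The libraries held 16785827 to 19901335 estimated counts. TMM scaling factors, which correct for a few abundant transcripts taking up a library, ran from 0.83 to 1.22. The 3 highest belonged to fasted libraries: fasted 28 days replicate 2 at 1.22, fasted 8 days replicate 2 at 1.20 and fasted 28 days replicate 3 at 1.09. The 3 lowest were those of the fed 28-day libraries, at 0.842, 0.835 and 0.917, where fed 8-day libraries had 1.03, 1.05 and 1.02. Scaling by these factors therefore raises fed 28-day values relative to fed 8-day ones. When the 3 libraries of highest factor were left out, 93 transcripts met the rule, of which 56 were among the 98. With CPM scaled by the TMM factors 65 transcripts met it, 64 of them among the 98. Of the 34 lost, 31 missed the 4-fold limit at 28 days, and folds at that day among the lost began at 3.08.

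Transcripts this strongly higher on both days were a small part of the liver's expressed set. Of 8591 transcripts with both fasted means at 5 CPM or more, 807 (9.39%) reached the 4-fold limit at 8 days and 346 (4.03%) reached it at 28 days, and 117 reached it on both. Separation of all fasted from all fed libraries was met by 1103 (12.8%). For 690 transcripts the 4-fold limit was met at 8 days only, and for 229 at 28 days only. Across the 8591, the median log2 fold was 0.19 at 8 days and 0.37 at 28 days.

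The limits of the rule cut through a continuous range. The smallest 8-day folds among the 98 were 4.03, 4.07 and 4.28, and the largest among 64 transcripts that failed only this limit were 3.94, 3.82 and 3.68. At 28 days the smallest folds inside were 4.004, 4.07 and 4.08, with 3.99, 3.98 and 3.92 just outside among 190 transcripts. The lower of the fasted means was 5.17, 5.28 and 5.49 CPM just inside and 4.83, 4.73 and 4.66 CPM just outside, where 205 transcripts failed this limit alone. The lowest fasted library stood 1.01, 1.104 and 1.12 times above the highest fed library in the 3 members nearest to overlap, while the nearest of 19 overlapping transcripts had ratios of 0.997, 0.966 and 0.747.

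**Figure D1:**
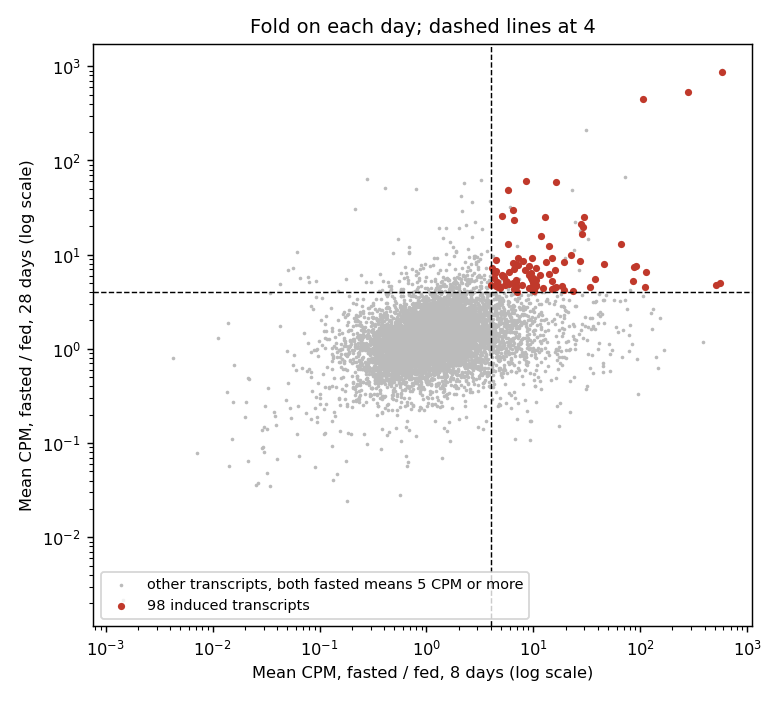
Ratio of mean CPM in fasted over fed livers at 8 days (horizontal, log scale) and at 28 days (vertical, log scale) for each transcript with both fasted means of 5 CPM or more; red points are the 98 members, grey points the others, and a fed mean under 3 counts per library is set to that floor. The members lie nearer to the dashed 4-fold line on the 28-day axis (median 5.997) than on the 8-day axis (median 9.64).

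Among the 98, the fasting difference was larger at 8 than at 28 days in most. The median fold was 9.64 at 8 days, from 4.03 to 585, and 5.997 at 28 days, from 4.004 to 872. The 8-day fold was the larger of both in 66 members and the 28-day fold in 32, and in 40 the folds were within 1.5 times of each other. A fold of 8 or more was found for 58 members at 8 days and for 28 at 28 days, and 19 had it on both days. Folds between 4 and 5 were found for 12 members at 8 days and for 29 at 28 days, so the 28-day limit cut closer to the set.

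The members ranged widely in abundance. Their mean over the 6 fasted libraries was 5.81 to 1449 CPM with a median of 16.8 CPM. In 19 members it was 100 CPM or more, in 49 it was 10 to 100 CPM, and in 30 it was under 10 CPM. In fed livers the median of the means was 1.56 CPM at 8 days and 2.91 CPM at 28 days. The lowest fasted library was at least 2 times the highest fed library in 54 members and at least 4 times in 11.

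**Figure D2:**
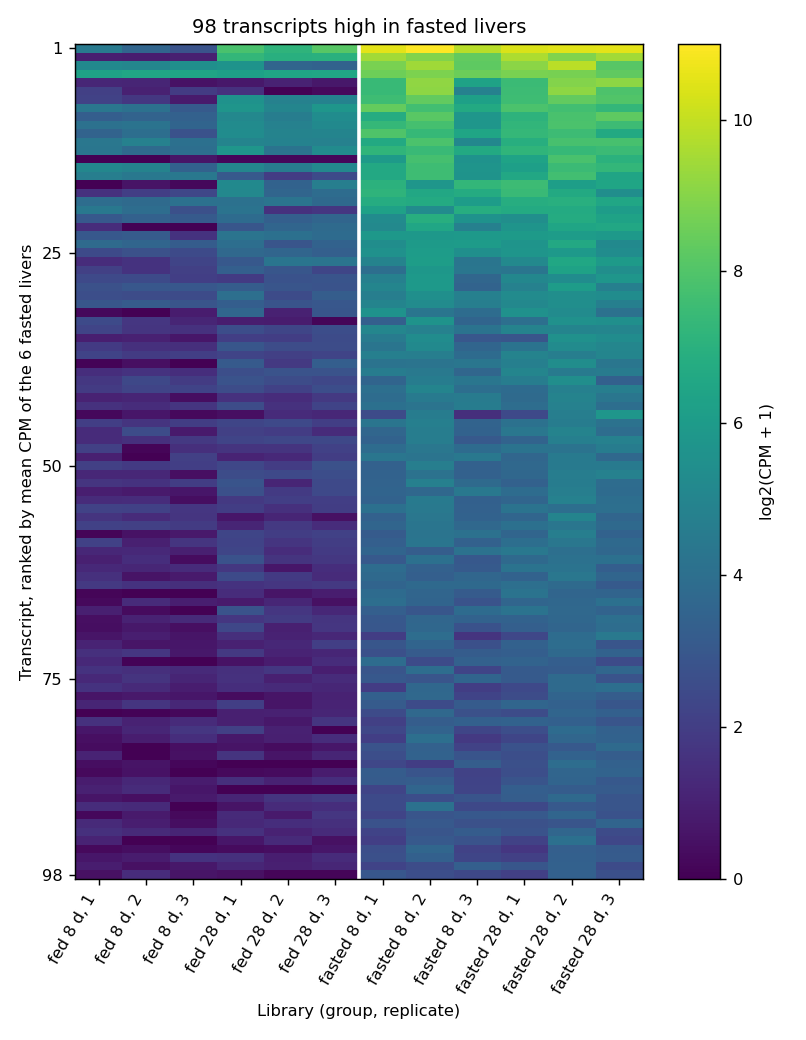
Level of the 98 transcripts as log2(CPM + 1), colour, in each of the 12 libraries (columns: 6 fed, then 6 fasted, each ordered by day and replicate), with transcripts in rows ranked by their fasted mean from 1449 CPM at the top to 5.81 CPM at the bottom. Every row is brighter right of the white line, as the rule requires, and within the fed livers many rows are brighter at 28 than at 8 days.

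Summed over the 98, these transcripts took up a small and variable share of each library. In fed 8-day livers they made up 0.0490%, 0.0468% and 0.0389% of all counts, and in fasted 8-day livers 0.646%, 0.903% and 0.409%. In fed 28-day livers the shares were 0.125%, 0.0837% and 0.112%, and in fasted 28-day livers 0.667%, 0.893% and 0.719%. The lowest fasted library lay above the highest fed one, which follows from the rule. At 8 days the mean was 0.0449% ± 0.0053 in fed and 0.653% ± 0.247 in fasted livers, and at 28 days it was 0.107% ± 0.0209 in fed and 0.760% ± 0.118 in fasted livers (SD, n = 3). The 5 members with the highest fasted mean held 48.3% of the sum on average in fasted 8-day livers and 46.1% in fasted 28-day livers.

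The most abundant member was TRINITY_DN8692_c0_g1_i1_4, a transcript of 767 nucleotides. It measured 22.1, 10.99 and 6.08 CPM in fed 8-day livers and 1502, 2041 and 899 CPM in fasted 8-day livers. In fed 28-day livers it measured 231, 142 and 279 CPM, and in fasted 28-day livers 1306, 1449 and 1496 CPM. The fasted groups reached the same range on both days, while the fed 28-day libraries all lay above the fed 8-day ones, so that the fold was 113 at 8 days and 6.52 at 28 days. Per length it was also the highest of the 98, with a mean of 1860 FPKM (fragments per kilobase of transcript, relative to library size) in fasted livers, where the median member had 12.6 FPKM.

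The second by fasted CPM, TRINITY_DN16819_c2_g2_i3_3 of 1839 nucleotides, was near silent in one fed group only. It measured 0.918, 0.846 and 0.935 CPM in fed 8-day livers against 705, 485 and 324 CPM in fasted ones, a 561-fold difference. At 28 days it measured 154, 121 and 124 CPM in fed and 808, 485 and 703 CPM in fasted livers, a 5.01-fold difference. All fed 28-day libraries lay far above the fed 8-day ones, while the fasted libraries of the 2 days overlapped. The assembler placed 4 further transcripts in the same component (a group of contigs joined by shared sequence), and 1 of these, of 1744 nucleotides, stood at 296 CPM in fed 28-day livers against 19.6 to 32.6 CPM in the other groups. With all 5 transcripts of the component summed, the fold was 11.3 at 8 days and 1.60 at 28 days.

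The largest folds on both days belonged to TRINITY_DN16768_c0_g1_i2_3, of 1536 nucleotides. It had 9.41 estimated counts in all over the 3 fed 8-day libraries and 7.56 over the 3 fed 28-day libraries. In fasted 8-day livers it measured 63.3, 214 and 47.0 CPM, and in fasted 28-day livers 82.5, 228 and 129 CPM. All 6 fasted libraries were far above every fed one, with replicate 2 the highest on both days. The fold was 585 at 8 days, and at 28 days 872 when the fed mean was set to a floor of 3 counts per library. The 8-day fold rests on fed libraries at 0, 0 and 0.554 CPM. With all 4 transcripts of this member's component summed, the fold was 43.4 at 8 days and 36.8 at 28 days.

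Next by the smaller of its folds came TRINITY_DN25998_c0_g1_i1_4, of 520 nucleotides, the member with the second highest fasted level per length at 655 FPKM. It measured 1.28, 1.22 and 0.462 CPM in fed 8-day and 0.611, 1.06 and 0.627 CPM in fed 28-day livers. Fasted livers held 170, 574 and 79.7 CPM at 8 days and 179, 497 and 562 CPM at 28 days. The fed groups overlapped, the fasted groups overlapped as well, with folds of 278 and then 538.

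By their level in fed livers the 98 formed 4 classes, taking a group mean under 1 CPM as near silent. In 11 members both fed groups were near silent, and here the median fold was 19.3 at 8 days and 19.6 at 28 days. Another 26 were near silent in fed 8-day livers only, and their median fold was 19.0 at 8 days and 5.23 at 28 days. The reverse held for 4, near silent in fed 28-day livers only, with median folds of 7.54 and 55.1. The remaining 57 were present in both fed groups, with median folds of 6.68 and 5.65. A low fed mean raises the fold by construction, so these medians describe how level and fold went together in the set.

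Whether the 2 fasts brought the members to the same level was compared directly, since the rule set fasted against fed but not one fast against the other. The rule does limit this comparison, because it asks for a minimum level and a minimum rise over the fed mean on both days. By edgeR's quasi-likelihood test with Benjamini-Hochberg adjustment over 32212 transcripts, 0 of the 98 differed between fasted 28-day and fasted 8-day livers at an adjusted p under 0.05, and so did 0% of all transcripts tested (0 higher, 0 lower). At an unadjusted p under 0.05 the counts were 0 of the 98 and 894 of all. DESeq2 called 0 of the 98 and, over all, 10 higher and 22 lower at 28 days, and limma called 0 of both.

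Most members were nonetheless somewhat higher on average at the later fast. The fasted values of both days entered the rule, and fed 28-day means were above fed 8-day means in 79 of the 98. A 4-fold rise over a higher fed mean asks for a higher fasted mean, so this lean only describes the selected set. The fasted 28-day mean CPM was above the fasted 8-day mean in 84 of the 98 (85.7%) and in 59.6% of the 8591. The fitted log2 difference, 28 days minus 8 days, had a median of 0.22 over the 98 and 0.01 over all tested. It ran from -0.47 to 1.47 over the 98, and its standard error had a median of 0.43. It was above 0 in 76 of the 98 (not counted over all tested), and in 60 to 78 with a library left out. Without fasted 28 days replicate 2 it was above 0 in 60, with a median of 0.11. Without fasted 8 days replicate 3 it was above 0 in 62, with a median of 0.13. Fasted libraries of the 2 days overlapped in 95 of the 98, and in 96.2% of the 8591. The means of both fasts were within 1.5 times of each other in 83 members (84.7%) and in 95.0% of the 8591. With errors of this size a difference of the order of the standard error was not detectable. Even the largest of the 98, 1.47 with a standard error of 0.88, was not called, and the missing calls do not show that the levels were equal.

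The members with the smallest p in this comparison show its scale. TRINITY_DN15165_c0_g1_i4_2, of 3709 nucleotides, measured 9.85, 16.9 and 9.74 CPM in fasted 8-day and 11.6, 24.2 and 27.6 CPM in fasted 28-day livers. Its log2 difference was 0.70 ± 0.36 (SE, 3 libraries a group) with an edgeR p of 0.0787 and an adjusted p of 1. TRINITY_DN15639_c1_g2_i1_2, of 481 nucleotides, measured 4.51, 5.02 and 6.33 CPM and then 8.35, 12.4 and 6.44 CPM. Here the later libraries all lay above the earlier ones, the highest of the first group and the lowest of the second being close, and the log2 difference was 0.64 ± 0.35. This member did not stand alone in its component. With all 3 transcripts of the component summed, the fold over fed livers was 5.87 at 8 days and 2.20 at 28 days.

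Of the members that were lower at the later day, those with the smallest p were almost level. TRINITY_DN11031_c0_g1_i2_1, of 3107 nucleotides, measured 377, 452 and 371 CPM in fasted 8-day and 436, 424 and 318 CPM in fasted 28-day livers. Fed livers held it at 78.9, 89.3 and 85.5 CPM at 8 days and 74.8, 86.6 and 90.1 CPM at 28 days. Its folds of 4.73 and 4.69 were nearly equal, and the fasted log2 difference was -0.12 ± 0.15. TRINITY_DN10152_c0_g1_i1_1, of 3497 nucleotides, measured 46.9, 65.7 and 44.1 CPM and then 52.8, 58.9 and 39.6 CPM, a log2 difference of -0.14 ± 0.18. Both log2 differences moved to just above 0 when fasted 28 days replicate 3 was left out, at 0.0038 and 0.00094.

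The fed livers differed between the days more than the fasted ones did. By edgeR's quasi-likelihood test 39 of the 98 (39.8%) were higher in fed 28-day than in fed 8-day livers at an adjusted p under 0.05, against 14.3% of all transcripts tested. Lower at 28 days were 3 of the 98 (3.06%), against 12.8% of all. The 32212 tested include many transcripts under the rule's minimum of 5 CPM, so this background is not matched to the members' level. The median log2 difference was 1.02 over the 98 and 0.01 over all tested. On the 6 fed libraries alone, 92 of the 98 passed the filter on low counts, and 33 of them were called higher and 2 lower. Of all 25735 transcripts tested there, 4573 were called higher and 4374 lower. Both fed groups entered the rule as denominators, and the rule asks for a rise over each, so this comparison shares its libraries with the choice of members. The shares called are therefore given as a description of the selected set, and nothing is read from their distance to the background.

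The scaling of the libraries moves this comparison as a whole. With library size alone in place of TMM factors, the median over all transcripts went from 0.01 to -0.24 and that over the 98 from 1.02 to 0.77. Then 29 of the 98 were called higher and 3 lower, where 3441 and 5469 of all 32212 were. On CPM, fed 28-day means were above fed 8-day means in 79 of the 98 (80.6%) and in 43.6% of the 8591. All 3 fed 28-day libraries lay above all 3 fed 8-day libraries in 37 members, where 29.0% of the 8591 did so, and below them in 6, where 39.6% did.

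The 39 that were called higher rose by a log2 difference of 1.07 to 7.46 with a median of 2.08. They went from fed 8-day means of 0.0388 to 15.4 CPM to fed 28-day means of 1.004 to 217 CPM. Of them, 19 were in the class near silent at 8 days only, whose definition sets this direction. The other 20 were in the class present in both fed groups. The most abundant member, TRINITY_DN8692_c0_g1_i1_4, was among the 39, with an edgeR log2 difference of 4.30 ± 0.46 and an adjusted p of 6.6e-05. The largest rise was that of TRINITY_DN16819_c2_g2_i3_3, at 7.46 ± 0.42.

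The second largest rise between the fed days was that of TRINITY_DN14850_c11_g1_i2_1, of 2868 nucleotides. It measured 0, 0.509 and 0.162 CPM in fed 8-day livers and 36.5, 10.1 and 25.1 CPM in fed 28-day livers, a log2 difference of 6.88 ± 0.96 with an edgeR adjusted p of 0.00043. Fasted livers held 133, 53.1 and 157 CPM at 8 days and 188, 70.3 and 87.5 CPM at 28 days. The fasted groups overlapped, and the fold was 511 at 8 days and 4.81 at 28 days.

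Of the 3 members called lower in the later fed group, the 2 with the largest differences were of low abundance. TRINITY_DN2720_c0_g1_i1_3, of 353 nucleotides, measured 1.02, 1.56 and 0.591 CPM in fed 8-day livers and 0 in all fed 28-day libraries. In fasted livers it measured 3.71, 11.1 and 3.81 CPM and then 8.65, 8.11 and 8.00 CPM, which is 5.85-fold at 8 days and at least 49.1-fold at 28 days against the floor of 3 counts per library. TRINITY_DN15635_c0_g1_i3_2, of 1250 nucleotides, measured 0.332, 0.498 and 0.131 CPM in fed 8-day livers and was at or next to 0 in the 3 fed 28-day libraries. Its fasted values were 4.004, 2.97 and 8.53 CPM and then 5.49, 14.2 and 9.73 CPM, which is 16.1-fold and, against the floor, at least 58.4-fold. Their edgeR adjusted p between the fed days was 0.00076 and 0.02, and fitted differences against groups at 0 are no bound. The second call was lost in 4 of 20 alternatives, with adjusted p from 0.0033 to 0.522 over the 20, and TRINITY_DN15635_c0_g1_i3_2 did not pass the filter on low counts when only the 6 fed libraries were used.

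**Figure D3:**
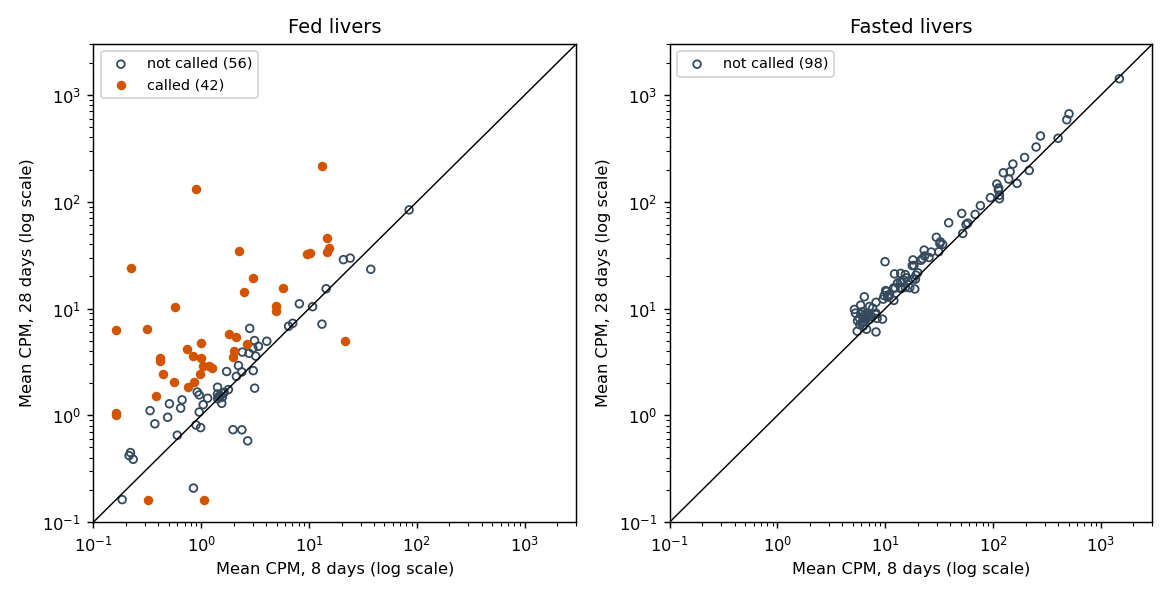
Mean CPM at 8 days (horizontal, log scale) and at 28 days (vertical, log scale) of the 98 transcripts in fed livers (left) and in fasted livers (right), with the line of equal levels; filled points passed an edgeR adjusted p under 0.05, and means under 3 counts per library are drawn at that floor. In fed livers 42 points are filled, 39 above the line, while in fasted livers all 98 points are open and 84 lie above the line, most of them close to it.

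The fold itself differed between the days in part of the members. The difference of the fasting responses, which equals the fasted difference minus the fed difference, is built from the folds that chose the members, so its calls are given as a description and nothing is read from their number. By edgeR's quasi-likelihood test 16 of the 98 had a smaller response at 28 days at an adjusted p under 0.05 (background 8.13% of all transcripts), and 2 had a larger one (background 6.24%). All 18 were also called between the fed days in the matching direction, and none between the fasted days. The 16 had folds of 10.2 to 561 at 8 days, with a median of 41.6, and of 4.24 to 13.0 at 28 days, with a median of 4.78. Without fasted 8 days replicate 1 the 18 became 11, where 1495 larger and 2023 smaller responses were called of all 34515 tested. Without the 3 libraries of highest TMM factor the 18 became 8, where 1236 and 1448 were called of all 35779.

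Differences of response were largest in members already described. The fitted log2 difference was -7.16 ± 0.50 for TRINITY_DN16819_c2_g2_i3_3 and -6.99 ± 1.16 for TRINITY_DN14850_c11_g1_i2_1. TRINITY_DN10152_c0_g1_i1_1 had the smallest change among the 16, at -1.52 ± 0.27. In that member fed livers held 4.58, 5.61 and 4.51 CPM at 8 days and 11.996, 10.9 and 8.93 CPM at 28 days, and the fold was 10.7 and then 4.75. The larger response at 28 days of TRINITY_DN2720_c0_g1_i1_3 and TRINITY_DN15635_c0_g1_i3_2 rests on the near absence of counts in fed 28-day livers given above.

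The fasted livers were not alike in these transcripts. The highest fasted library was a median of 2.91 times the lowest over the 98, against 1.82 times over the 8591. The coefficient of variation had a median of 42.5% in fasted 8-day and 35.4% in fasted 28-day livers over the 98, where the 8591 had 23.6% and 20.5%. In fed livers it was 41.4% and 35.3% over the 98, against 12.5% and 15.7%. The part of counting error in these spreads was not tested.

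The spread followed particular libraries. Fasted 28 days replicate 2 was the highest of the 6 in 45 members (45.9%, against 25.8% of the 8591), and fasted 8 days replicate 3 was the lowest in 49 (50%, against 29.8%). With TMM-scaled values the former was the highest in 30 members and the latter the lowest in 43 (not counted over the 8591). Relative to each member's mean log2 CPM over the fasted libraries, the median was 0.59 in fasted 28 days replicate 2, 0.36 in fasted 8 days replicate 2 and -0.63 in fasted 8 days replicate 3. Over those of the 8591 with counts in all 6 fasted libraries, the same medians were 0.13, 0.16 and -0.12. The first 2 of these libraries also had the highest TMM factors, and with TMM-scaled values the medians over the 98 were 0.38, 0.17 and -0.45. Those over the same part of the 8591 were within -0.07 to 0.06 in all 6 fasted libraries.

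**Figure D4:**
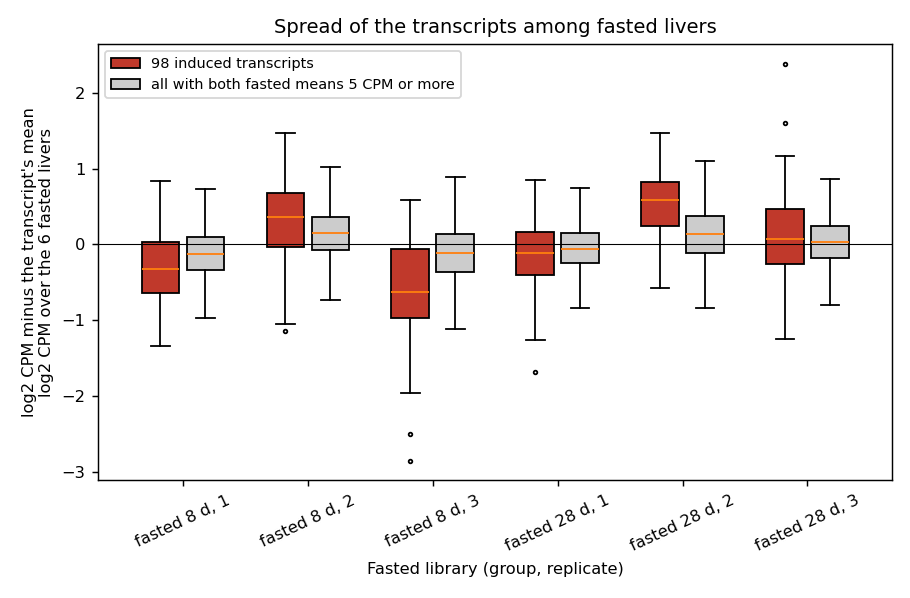
Log2 CPM of each transcript in a fasted library minus its mean log2 CPM over the 6 fasted libraries (vertical), by library (horizontal). The 98 members are in red. In grey are those of the 8591 transcripts with both fasted means of 5 CPM or more that had counts in all 6 fasted libraries. Boxes give the quartiles, lines the medians and whiskers reach 1.5 times the box height. The red medians run from -0.63 in fasted 8 days replicate 3 to 0.59 in fasted 28 days replicate 2, further from 0 than the grey ones.

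Members differed in how much they took part in this spread. TRINITY_DN11456_c0_g1_i2_1, of 2383 nucleotides, was the most even, at 57.0, 56.5 and 61.2 CPM in fasted 8-day and 63.4, 66.2 and 59.6 CPM in fasted 28-day livers, a ratio of 1.17 between highest and lowest. TRINITY_DN11031_c0_g1_i2_1 followed with a ratio of 1.42. At the other end, TRINITY_DN16026_c0_g1_i8_3, of 2530 nucleotides, measured 4.65, 23.3 and 1.82 CPM and then 4.34, 24.9 and 53.0 CPM, a ratio of 29.2. TRINITY_DN15131_c0_g1_i2_3, of 2656 nucleotides, measured 171, 551 and 27.9 CPM and then 186, 551 and 239 CPM, a ratio of 19.8. In both of these fasted 8 days replicate 3 was the lowest library. Its value lay above every fed library because the rule requires it. The highest fed library was at 1.57 CPM for the first and 3.30 CPM for the second.

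How much the choice rests on single libraries was described by choosing transcripts on 11 libraries at a time. Between 81 and 117 were chosen in this way. The library left out was at least 4-fold from the mean of the opposite group of its day for 56.1% to 93.8% of those chosen, with the lowest share in fasted 28 days replicate 1. Over the transcripts not chosen, with both fasted means at 5 CPM or more, the share was 2.23% to 10.6%. The median share was 72.5% for left-out fasted and 84.3% for left-out fed libraries, against 5.77% and 8.00% over those not chosen. Failing the rule itself lowers the share of the latter. The opposite group's libraries had entered each choice, so these shares are no independent check of the set.

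Features of the assembly that the rule did not use were set beside those of the 8591. The members had a median length of 1682 nucleotides, from 347 to 5249, against 1613 for the 8591 and 598 for all 42353. Among the 42353, no locus of the assembler held more than 1 transcript. Isoform numbers in the identifiers run above 1, so other isoforms may be missing from the 42353. Components were told apart by their name together with the last number of the identifier. At this level 66 of the 98 (67.3%) stood alone among the 42353, against 80.6% of the 8591. The last number of the identifier, whose meaning the sources used here do not give, was 3 in 42.9% of the members and in 35.5% of the 8591, and 4 in 6.12% and 19.8%.

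The other 32 members shared their components with 73 transcripts outside the 98. Of these 73, 35 reached 5 CPM in some group, and among the 35, 19 were higher in fasted livers on both days, 2 of them at least 4-fold, while 14 went different ways on the 2 days and 2 were lower on both. With the counts of each component summed, 74 of the 98 still met the rule, which included 8 of the 32. The estimated counts of related contigs can be divided between them in more than one way, so the values of these 32 are less certain than those of the 66 that stood alone.

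A single component held 2 members, TRINITY_DN16556_c1_g4_i1_3 of 1725 nucleotides and TRINITY_DN16556_c1_g2_i2_3 of 1844 nucleotides, a pair singled out after its values were seen. The first measured 2.60, 1.90 and 1.78 CPM in fed 8-day and 18.6, 36.6 and 11.1 CPM in fasted 8-day livers, then 6.57, 4.93 and 4.79 CPM in fed 28-day and 17.1, 38.4 and 32.3 CPM in fasted 28-day livers. The second measured 1.55, 1.66 and 0.345 CPM against 9.88, 22.0 and 9.37 CPM, then 2.56, 3.12 and 3.09 CPM against 11.1, 27.5 and 14.9 CPM. Both were highest in fasted 28 days replicate 2 and lowest of the fasted libraries in fasted 8 days replicate 3. At 8 days the folds of this pair were 10.6 and 11.6, and at 28 days they were 5.38 and 6.097.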

How the data were processed

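The data were liver RNA sequencing of 12 libraries, 3 in each of 4 groups. Per the labels' protocols, stranded mRNA libraries were made from RNA whose integrity number was at least 7, and paired reads of 125 or 150 nucleotides were taken. The sources used here do not give which instrument read which library, the assembler or the abundance program. Trimmomatic and Bowtie2 are named, without versions, per the submitters' processing notes. The authors deposited estimated counts per transcript, which are not whole, and FPKM values made by the authors. Dividing one by the other gave lengths that were whole within 0.05 nucleotides for 100% of transcripts.

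CPM used the column totals, and no other scaling entered the rule for membership. For tests between days, the deposited estimated counts were rounded and all 12 libraries were fitted as 4 groups with edgeR 4.0.16 (R 4.3.3; filterByExpr, TMM, robust quasi-likelihood F test), which kept 32212 transcripts and all 98 members, whose fasted level carries them past the filter. P-values were adjusted over all 32212 by the Benjamini-Hochberg method. Standard errors are the log2 difference divided by the square root of F, and are approximate. The floor for folds was 3 counts per library. Intervals were not computed, and the floor covers counting error only. Pairs of libraries within groups had chi-square values of 12.2 to 65.2 per transcript over transcripts with at least 20 counts. No library was therefore a duplicate of another in its group, and pairs across groups were not compared.

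Transcripts named are the 2 highest by fasted CPM, the 2 with the largest smaller fold, the 2 most extreme each way (or of smallest p) in each test between days, and the 2 most and least even over fasted libraries. The rule also took the members of the 2 loci with most members, and since all loci tied at 1 this named the 2 most abundant again. The members, lists and tests were chosen with earlier results of these data known. Alternatives were RLE scaling, library size alone, limma 3.58.1 (log2 of FPKM plus 1 or plus 0.1), DESeq2 1.42.0, other limits of the rule, the replicate number as a block, and leaving out each library. Leaving out the 3 libraries of highest TMM factor and summing components were added after seeing the data.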

Additional observations from a re-analysis of the deposited data

Results flagged for a closer look

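The fasting response was called different between the days by edgeR's interaction test in 18 of the 98 transcripts, 16 smaller and 2 larger at 28 days, where 8.13% and 6.24% of all transcripts tested were called. The folds that make up this difference also chose the 98, so the count says nothing particular to them. The 2 largest differences in each direction were -7.16 ± 0.50 for TRINITY_DN16819_c2_g2_i3_3, -6.99 ± 1.16 for TRINITY_DN14850_c11_g1_i2_1, 7.66 ± 1.12 for TRINITY_DN2720_c0_g1_i1_3 and 6.22 ± 1.52 for TRINITY_DN15635_c0_g1_i3_2 (log2, 28-day response minus 8-day response, SE, 3 libraries a group). Over 20 alternatives they ran from -7.47 to -5.14, from -8.38 to -2.94, from 2.55 to 8.29 and from 1.14 to 6.88. The last pair rests on fed 28-day libraries at or next to 0 counts, against which a fitted difference is no bound. The call of TRINITY_DN15635_c0_g1_i3_2 was lost in 9 of the 20, and the other three were called in all 20.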

How the results depend on the processing

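The number of transcripts meeting the rule was 65 with TMM-scaled CPM, 62 with RLE size factors, 513 at a fold minimum of 2, 19 at a fold minimum of 8, 219 at a minimum of 1 CPM and 65 at a minimum of 10 CPM. It was 108 with FPKM (79 of the 98 kept), 87 with the fed group of the other day (75 kept), and 81 to 117 with a library left out. The median log2 fold with the fed group of the other day was 2.31 at 8 days and 3.57 at 28 days, and at 28 days 2.22 with TMM factors and 2.18 with RLE size factors, against 3.27 and 2.58 as reported. Calls between the fasted days were 0 of the 98 in every alternative. Calls between the fed days were 42 (39 higher, 3 lower), where 4601 and 4139 of all 32212 were called. With limma on log2(FPKM + 1) they were 24 (22 higher, 2 lower), against 3287 and 6567 of all. At an adjusted p under 0.01 they were 23 (22 higher, 1 lower), against 2668 and 2217 of all. With a library left out the calls between the fed days were 31 to 45. The 31 came without fed 8 days replicate 3, against 3666 higher and 3264 lower of all 34457. The 45 came without fasted 8 days replicate 3, against 4481 and 4114 of all 34574. Calls on the difference of responses were 18 (2 larger, 16 smaller), where 2011 and 2619 of all 32212 were called. With that limma setting they were 7 (1 larger, 6 smaller), against 3718 and 1478 of all. At an adjusted p under 0.01 they were 11 (1 larger, 10 smaller), against 776 and 1184 of all. Without the 3 libraries of highest TMM factor they were 8 (1 larger, 7 smaller), against 1236 and 1448 of 35779. With a library left out they were 11 to 19. The 11 came without fasted 8 days replicate 1, against 1495 larger and 2023 smaller of all 34515. The 19 came without fasted 8 days replicate 3, against 1481 and 1997 of all 34574. With library size alone the calls on the responses were 3 larger and 11 smaller (21.4% larger, against 11.1%), where 2959 and 1669 of all 32212 were called. The medians over all transcripts were then 0.34 against -0.01. Only the scaling differs between these settings, and the TMM factors were lowest in the fed 28-day libraries. Why the factors differed between groups was not tested, nor was the cause of the other shifts. The fasted difference of TRINITY_DN11031_c0_g1_i2_1 changed sign to 0.0038 without fasted 28 days replicate 3 and to 0.13 without the 3 libraries (-0.34 to 0.0038 with a library left out). That of TRINITY_DN10152_c0_g1_i1_1 changed sign to 0.00094 and 0.13 (-0.31 to 0.00094). Same-numbered replicates had correlations of -0.16 to 0.14 between groups, so the numbers do not pair the samples. With the replicate number as a block, the calls were 40 between the fed days (36 higher, 4 lower), against 4254 and 3908 of all 32212. On the responses they were 17 (2 larger, 15 smaller), against 1744 and 2334 of all, and between the fasted days 0. With 3 libraries a group, differences of about the standard error were not detectable. Between the fasted days, a larger one of 0.70 ± 0.36 (TRINITY_DN15165_c0_g1_i4_2) was not called either.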
